A study of Mus musculus and Homo sapiens with 22 samples.

Results

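Lin28A binding was described along 3 mRNA genes of the ubiquitin system, Nedd4, Usp9x and Trip12, in mouse embryonic stem (mES) cells without and with Mettl3. The members were all sites in the deposited lists that lay within the annotated bounds of these genes on the gene's own strand. They numbered 86 of 11285 sites in Mettl3 knockout (KO) cells and 76 of 10990 in Mettl3 wild-type (WT) cells. The 3 genes, of 4839 with a site in either list, were chosen by their site numbers in these same lists, so the numbers are given as a description and nothing rests on their being high. By number of sites, Nedd4, Usp9x and Trip12 ranked 2nd, 7th and 6th among all genes in the KO list and 4th, 9th and 13th in the WT list.

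The 2 site lists came from irCLIP, in which RNA is crosslinked to protein by ultraviolet light in intact cells and recovered with an antibody, here against Lin28A. Both genotypes were V6.5 mES cells grown with serum and LIF on gelatin. The labels give the genotypes as Mettl3_KO and Mettl3_WT and name neither the knockout allele nor whether the KO line was 1 clone. The series of 22 samples also held RNA structure probing in HEK293 and V6.5 cells and anti-GFP irCLIP controls, which were not used here. The sources used here do not give the libraries' read depth. Each genotype had 1 sample, so no difference between them has a replicate check and no p-value is given for one. The binomial intervals (95%, Clopper-Pearson) cover counting error only.

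Ubiquitin is attached to proteins by a chain of E1, E2 and E3 enzymes and is taken off by deubiquitinases. Nedd4 and Trip12 are HECT-type E3 ligases, which carry ubiquitin on a catalytic cysteine before handing it to the substrate. Nedd4 recognises proline-rich motifs in membrane proteins and signalling adaptors through WW domains, while Trip12 was defined by its action on ubiquitin fusion proteins and on nuclear substrates. Usp9x is a large X-linked deubiquitinase that removes ubiquitin from many substrates. Lin28A binds RNA through a cold-shock domain and zinc knuckles, blocks let-7 maturation and occupies many mRNAs of pluripotent cells; GGAG is the motif of its zinc knuckles. Mettl3 is the catalytic subunit of the m6A writer.

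By the gene bounds of the RefSeq annotation of GRCm38.p6, the assembly of the mm10 build used by the authors, Nedd4 spans chr9:72662331-72749851 on the plus strand (87521 nt), Usp9x chrX:13070982-13173328 on the plus strand (102347 nt) and Trip12 chr1:84721189-84850004 on the minus strand (128816 nt). Nedd4 and Usp9x overlap no other annotated gene. The 5′ end of Trip12 overlaps Fbxo36 from position 84839841, and no site of either list lay there. The RefSeq tables used here give the strand of Nedd4 and Trip12, and every site within their bounds was on it. They give none for Usp9x, which was taken as plus because all of its 50 sites were on that strand. The annotation used here gives gene bounds without exons, so exonic and intronic sites were not told apart.

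Sequence could be set under a site only at the start of Trip12, where RefSeq (GRCm38.p6) gives a promoter window of 300 bases. The window lies inside the annotated bounds, and each list held 1 site in it, 10.6 kb from the 5′ end of the gene in KO cells and 10.7 kb in WT cells. The KO site (chr1:84839351-84839400, score 17) covered bases -96 to -47 relative to the annotated start at position 84839304, and the WT site (chr1:84839251-84839300, score 14) covered bases 5 to 50 of the transcript and 4 bases beyond the window. The first line gives the 250 bases before the start (chr1:84839305-84839554, minus strand), with the KO site in capitals. The second gives the first 30 bases of the WT site (chr1:84839271-84839300, minus strand), with GGAG in capitals.
Trip12 before the start: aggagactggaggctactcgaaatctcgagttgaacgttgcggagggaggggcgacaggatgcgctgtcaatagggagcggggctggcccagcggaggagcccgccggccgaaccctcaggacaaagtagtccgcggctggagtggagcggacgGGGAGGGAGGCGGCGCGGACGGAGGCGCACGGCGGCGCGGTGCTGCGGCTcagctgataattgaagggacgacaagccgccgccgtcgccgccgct
Trip12 WT site: ggggtggggGGAGccagtggaagttgccgt

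The KO site held GGAG 3 times on the gene's strand, and the 46 bases of the WT site inside the window held it 2 times; the reverse complement CTCC was in neither. The whole window held GGAG 14 times, where the median of 32851 RefSeq promoter windows was 2. GGAG stood at least once in 83.7% of all windows on the gene's strand (CTCC in 82.1%), in 29.2% at the place of the KO site and in 32.0% at the place of the WT site. These shares are over promoter DNA, not Lin28A sites, and give no background for 3 or 2 copies. The KO and WT sites did not overlap each other, and both were unshared. A match of 4 letters is a description of the sequence, not a binding site.

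Counted over all deposited sites, the 3 genes had similar site numbers in the genotypes. Nedd4 had 32 sites in KO cells and 30 in WT cells, Usp9x 26 in KO and 24 in WT, and Trip12 28 in KO and 22 in WT. These are KO to WT ratios of 1.07, 1.08 and 1.27, where the median of the 370 genes that had 10 or more sites in the lists combined was 1.00. None of the 3 reached a difference of 1.5-fold. The lowest score was 12 in the KO list and 13 in the WT list. With a score of at least 13 in both, a setting chosen after seeing the data, the numbers were closer. Nedd4 then had 30 KO and 30 WT sites, Usp9x 24 KO and 24 WT, and Trip12 24 KO and 22 WT. Of the 370 genes, 11.1% had at least 1.5-fold more sites in KO cells and 15.9% at least 1.5-fold fewer. These genes had a median of 15 sites over both lists, where the members had 50 to 62. Among the 123 genes with at least 20 sites, the shares were 2.44% and 8.94%. With a score at or above the median of the own list, Nedd4 did pass 1.5-fold. It then had 13 sites in KO and 21 in WT cells, which is the other direction. The number of sites and the length of RNA they covered did not always go the same way. Nedd4 sites covered 2450 nt in KO and 2800 nt in WT cells, Usp9x sites 1950 nt in KO and 1550 nt in WT cells, and Trip12 sites 1550 nt in KO and 1250 nt in WT cells, so Nedd4 had more sites in KO cells but more covered length in WT cells. Per 10 kb of annotated gene, introns included, Nedd4 had 7.08 sites over both lists, above the median of 6.51 in the 370 genes. Usp9x with 4.89 and Trip12 with 3.88 were below it.

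**Figure D1:**
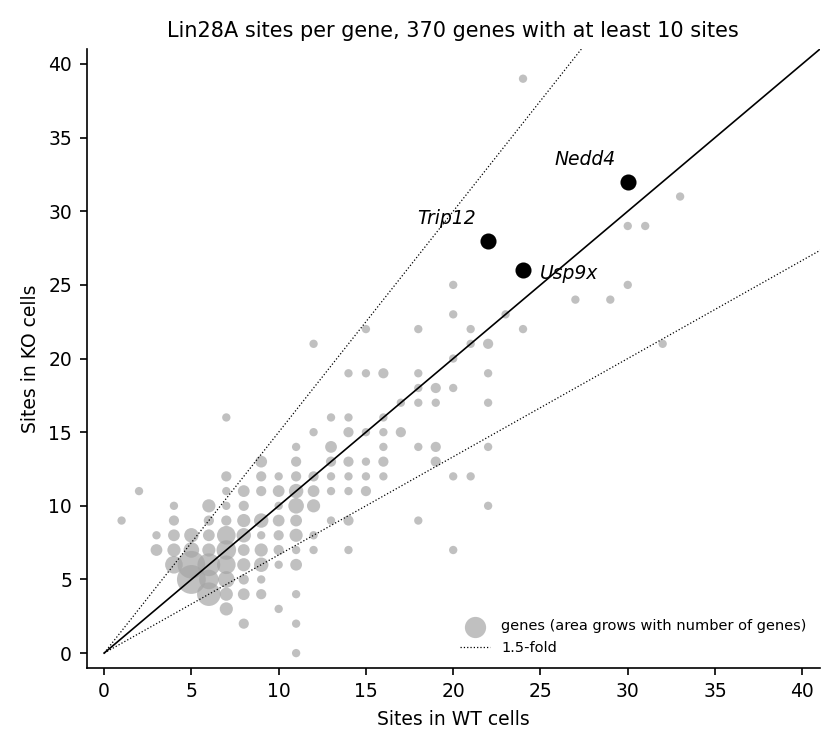
Number of Lin28A sites per gene in KO cells (vertical axis) and WT cells (horizontal axis) for the 370 genes that had 10 or more in the lists combined. The solid line marks equal numbers and the dotted lines 1.5-fold; Nedd4 (32 KO, 30 WT), Usp9x (26 KO, 24 WT) and Trip12 (28 KO, 22 WT) lie between the dotted lines.

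Nedd4 sites gathered at the 3′ end of the gene. The last 3 kb held 13 of the 32 KO sites and 9 of the 30 WT sites. This stretch is 3.43% of the annotated gene length, introns included. Its share of the mRNA is not known here, as the annotation has no exons. Sites are made of windows of 50 nt, and counted in these windows, this stretch had 21 windows in KO and 25 in WT cells, with 17 in both. A single WT site of 400 nt (chr9:72748901-72749300, score 29.5) faced KO sites of 50, 50 and 200 nt in the same stretch (scores 13, 13 and 35), and a WT site of 250 nt faced 2 KO sites. The larger number of KO sites there therefore went with more divided sites, not with more covered RNA. The last site ended 201 nt before the annotated gene end in KO cells and 451 nt before it in WT cells.

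**Figure D2:**
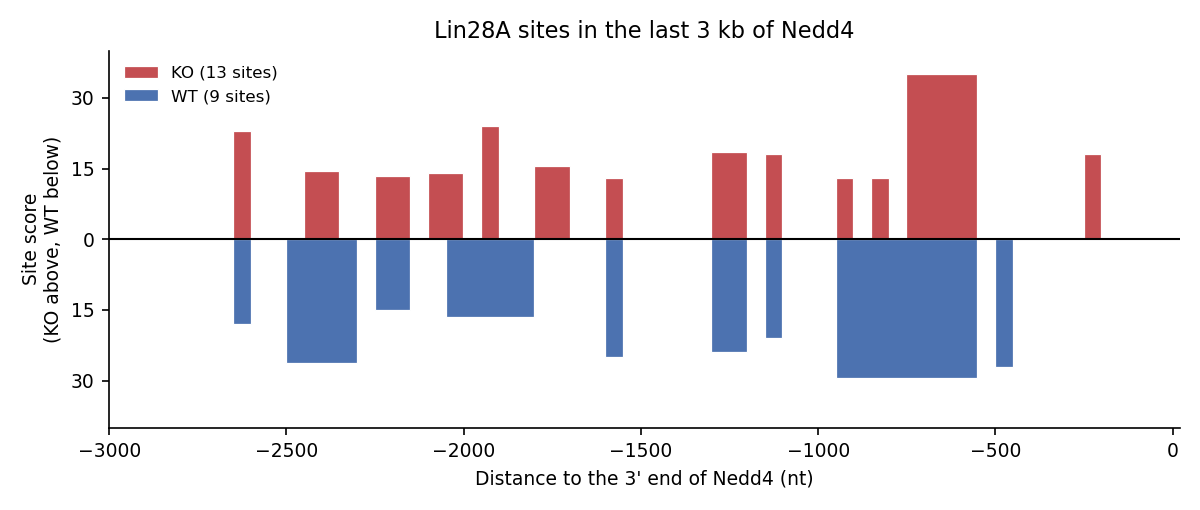
Lin28A sites in the last 3 kb of Nedd4, by distance to the 3′ end of the gene in nt (horizontal axis) and the authors' site score (vertical axis, KO bars upward and WT bars downward). Bar width is site width; 13 KO and 9 WT sites occupy 21 (KO) and 25 (WT) windows of 50 nt.

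Upstream of this stretch, Nedd4 had sites from 0.17 kb after its 5′ end onward, with the longest empty stretch, 22950 nt, at the same place in both lists. The highest KO score, 55, lay at chr9:72721601-72721650, inside a WT site of 150 nt with a score of 35.7, the third highest of the gene there. The highest WT score, 71, lay at chr9:72712201-72712250, inside a KO site of 100 nt with a score of 46.5, the second highest of the gene in KO cells. The leading sites thus overlapped, but each pair differed in width. In both pairs the wider site had the lower score, and the score times the number of 50-nt windows was a whole number for 100% of sites in both lists, as a mean over windows would give. Ranks of sites of unequal width were therefore not compared further. The scores are the authors' own and rank sites within a list: the median was 18 for Nedd4 KO sites, beside 19 for the whole KO list, and 24 for Nedd4 WT sites, beside 20 for the whole WT list. Of the Nedd4 sites, 11 of 32 in KO cells and 21 of 30 in WT cells scored above the median of their own list.

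By an overlap of at least 1 nt, nearly all Usp9x sites were in both lists, though only 13 had the same start and end. Counted in 50-nt windows, 27 of 39 KO and 27 of 31 WT windows were in both. No site lay in the first 27.5 kb or the last 11.9 kb of Usp9x in either list. The outermost sites overlapped: the first began at position 13098451 in both lists and the last at position 13161351 in both. The strongest site was the same 50-nt window in both, chrX:13110101-13110150, with a score of 52 in KO and 57 in WT cells. The next was also the same, chrX:13144401-13144450, with 46 in KO and 38 in WT cells. Of its sites, 24 of 26 in KO cells and all 24 in WT cells overlapped a site of the other genotype. The other two KO sites, at 40.1 and 43.6 kb from the 5′ end, each had a score of 12, below 13, the lowest score in the WT list. KO sites of Usp9x were wider, with 15 of 26 at the minimal width of 50 nt against 19 of 24 WT sites.

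Trip12 had the fewest shared sites of the 3 genes. Its strongest KO site was chr1:84739601-84739650 with a score of 60, the second strongest in WT cells with 34. Its strongest WT site was chr1:84724751-84724800 with a score of 39, the fourth strongest in KO cells with 30. The window chr1:84810251-84810300 had a score of 35 in KO cells, the third highest of the gene, and 13 in WT cells, the lowest the WT list holds. These windows were shared but ranked differently. As in the other two genes, most sites were nearer the 3′ end than the 5′ end: 24 of 28 KO and 19 of 22 WT sites in Trip12, 27 of 32 KO and 24 of 30 WT sites in Nedd4, and 17 of 26 KO and 17 of 24 WT sites in Usp9x. The interval with no WT site between 39.7 and 81.4 kb from the 5′ end (41600 nt) held 2 KO sites, at 56.1 and 72.5 kb, with scores of 12 and 16.

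**Figure D3:**
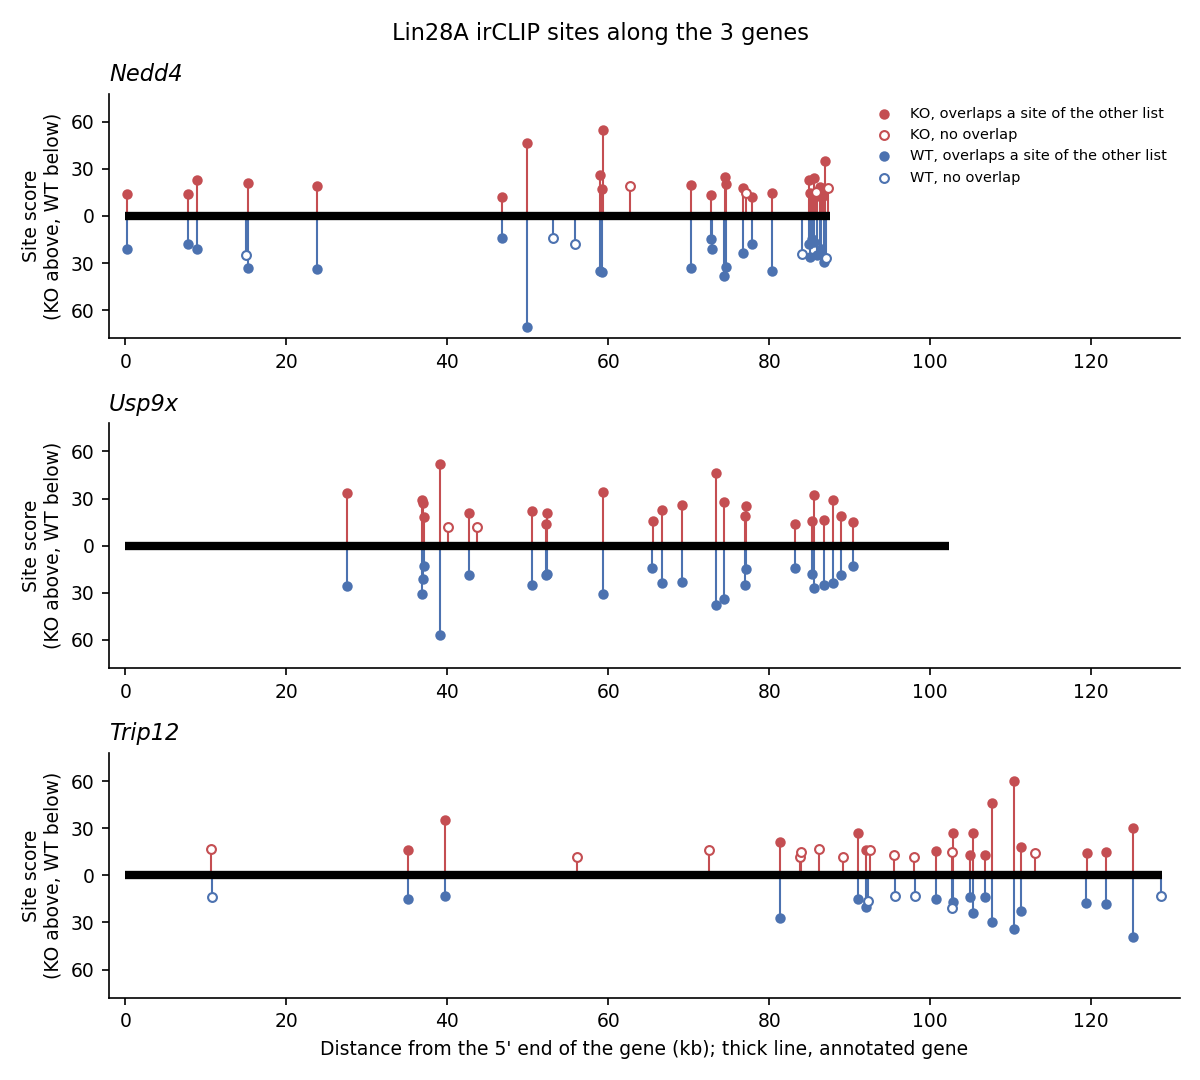
Lin28A sites along Nedd4, Usp9x and Trip12, by distance from the 5′ end of each gene in kb (horizontal axis) and the authors' site score (vertical axis, KO upward and WT downward). Open circles overlap no site of the other list; Usp9x has 2 of these in KO cells and 0 in WT cells, Trip12 12 in KO and 6 in WT cells.

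The share of sites found in both lists ran from Usp9x through Nedd4 to Trip12. In Usp9x, 92.3% of KO sites (95% interval 74.9 to 99.1) and 100% of WT sites (85.8 to 100) overlapped the other list by at least 1 nt. In Nedd4, 87.5% of KO sites (71.0 to 96.5) and 83.3% of WT sites (65.3 to 94.4) did so. In Trip12 the values were 57.1% of KO sites (37.2 to 75.5) and 72.7% of WT sites (49.8 to 89.3). Over all sites in single genes, 71.9% of KO and 73.9% of WT sites overlapped the other list. These include sites of genes with few sites. Gene by gene, the 370 genes had higher medians, 81% for KO sites (369 genes with a KO site) and 78% for WT sites. For KO sites, 95 genes stood above Usp9x, 121 above Nedd4 and 329 above Trip12. For WT sites, 0 stood above Usp9x, 129 above Nedd4 and 215 above Trip12. Sharing was known when the genes were chosen, and sites of 1 gene and 1 library are not independent, so these values are a description and no test. The intervals of neighbours in this order overlapped. The order depended on the setting. With gaps of up to 100 nt counted as shared, 90.9% of Trip12 and 86.7% of Nedd4 WT sites were shared. With both lists cut to scores at or above their median, 76.9% of Nedd4, 76.5% of Usp9x and 62.5% of Trip12 KO sites were shared. For WT sites the values were 47.6% in Nedd4, 92.9% in Usp9x and 62.5% in Trip12. In this setting a site whose only overlap was a weaker site of the other list counted as unshared. In the full lists, every unshared KO site of Trip12 and Usp9x scored below the KO median. The 5 unshared Nedd4 WT sites of the full lists included 2 below the WT median. By 50-nt windows, 77.6% of Nedd4, 69.2% of Usp9x and 54.8% of Trip12 KO windows were in the WT list, where the whole KO list had 72.4%. Of the WT windows, 67.9% in Nedd4, 87.1% in Usp9x and 68.0% in Trip12 were in the KO list, beside 74.9% for the whole list.

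**Figure D4:**
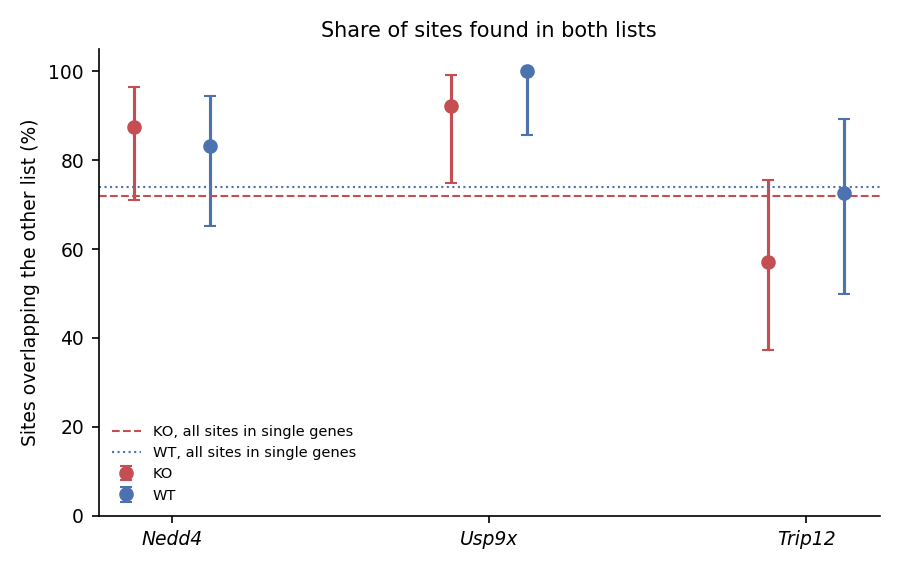
Percent of Lin28A sites of each gene that overlap a site of the other list (vertical axis), for KO and WT sites, with exact 95% binomial intervals over sites. Dashed and dotted lines are the values over all sites in single genes, 71.9% for KO and 73.9% for WT; the Usp9x points are at 92.3% and 100% and the Trip12 points at 57.1% (KO) and 72.7% (WT).

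Unshared sites of Trip12 and Usp9x mostly had low scores, as unshared sites did in the lists as a whole. The median score of unshared sites was 14 in the KO list and 15 in the WT list, against 22.5 in the KO list and 24 in the WT list for shared sites. All 12 unshared KO sites of Trip12 scored between 12 and 17, below the KO list's median, and 4 of them scored below 13, the lowest WT score. Of these 12, 3 directly touched a WT site and 1 lay 50 nt from one, while 7 were more than 1000 nt away. The 6 unshared WT sites of Trip12 scored between 13 and 21, and 3 of them touched a KO site. Nedd4 differed in WT cells: its 5 unshared WT sites had scores from 14 to 27 with a median of 24, and its 4 unshared KO sites from 14.5 to 19. With sites of at least 13 in both lists, Trip12 had 24 KO and 22 WT sites, and 66.7% of KO and 72.7% of WT sites were shared.

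**Figure D5:**
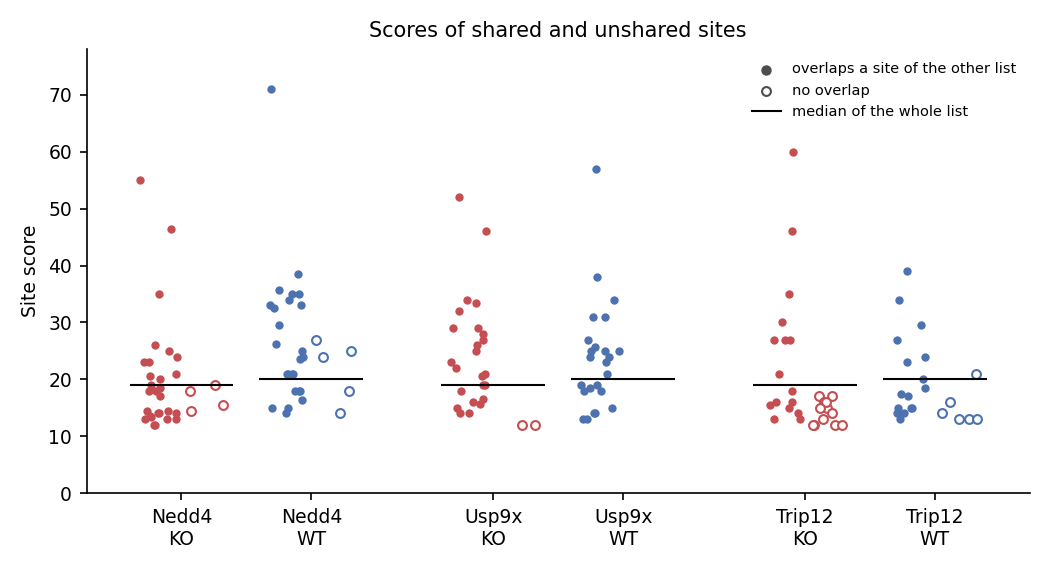
Scores of Lin28A sites (vertical axis) in each gene and genotype; filled circles overlap a site of the other list, open circles do not, and bars mark the median of the whole list (19 in KO, 20 in WT). The 12 open circles of Trip12 in KO cells lie at 17 or below.

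Where a site had the same start and end in both lists, its score could be set side by side. There were 12 such sites in Nedd4, 13 in Usp9x and 13 in Trip12. Across them the KO and WT scores had a Spearman correlation of 0.642 in Nedd4, 0.833 in Usp9x and 0.413 in Trip12, and a Pearson correlation of 0.66, 0.889 and 0.533 (0.58, 0.799 and 0.601 without the site of the highest WT score). These are descriptions: sites of a gene share 1 transcript pool and 1 library per genotype, and the sources used here do not say how scores were scaled between libraries.

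Spacing differed among the genes. The median gap between neighbouring sites was 350 nt in KO and 1050 nt in WT cells for Nedd4, 1450 nt in KO and 1750 nt in WT cells for Usp9x, and 2300 nt in KO and 2450 nt in WT cells for Trip12. Along the annotated gene, sites were thus packed most closely in Nedd4, in both genotypes. These gaps include introns, so spacing on the mRNA is not known here. With sites joined across gaps of up to 500 nt, Nedd4 fell into 16 regions in KO and 18 in WT cells, Usp9x into 21 in KO and 19 in WT cells, and Trip12 into 24 in KO and 19 in WT cells. The largest region was at the 3′ end of Nedd4, with 13 KO sites over 2450 nt and 9 WT sites over 2200 nt. No region of Usp9x held more than 3 sites and none of Trip12 more than 2, in either list.

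Genes most like each of the 3 were found by distance over site numbers (log2) and shares of shared sites, a measure over 4 values from 2 samples. Nearest to Nedd4 were Tet1, a 5-methylcytosine dioxygenase (29 KO and 31 WT sites), the long noncoding RNA gene Gm33272 (31 KO and 33 WT) and Igf2bp1, an mRNA-binding protein (29 KO and 30 WT). Nearest to Usp9x were the chromatin remodeller Chd4 (23 KO and 23 WT), the translation factor Eif4g2 (24 KO and 27 WT) and the endoplasmic reticulum chaperone Canx (22 KO and 21 WT). Nearest to Trip12 was another HECT ligase, Huwe1 (23 KO and 20 WT), followed by the importin Kpnb1 (25 KO and 20 WT) and Chd4. Their distances, 0.367 to 0.382, were larger than for Nedd4 (0.157 to 0.267) and Usp9x (0.298 to 0.302). Each had a larger share of shared sites than Trip12 (16 of 28 KO and 16 of 22 WT). Huwe1 shared 17 of 23 KO and 17 of 20 WT sites, Kpnb1 18 of 25 KO and 20 of 20 WT, and Chd4 19 of 23 KO and 18 of 23 WT.

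Across the wider ubiquitin system, site numbers were also close in the genotypes. The 6 lists held 169 genes, of which 97 had a site in KO and 91 in WT cells, with 386 KO and 378 WT sites in all. Among protein-coding genes as a whole, 17.2% had a KO site and 16.4% a WT site. That share is over 21900 genes, whether expressed in these cells or not, and the lists include the 3 members chosen for their sites. The 2 shares are therefore not like for like. Of 17 listed genes with at least 10 sites, the 3 members included, 0 had 1.5-fold more sites in KO cells, and 3 had 1.5-fold fewer: Usp7, a deubiquitinase (12 KO and 20 WT), Trim71, a RING ligase (9 KO and 14 WT), and Uhrf1, a RING ligase of DNA methylation maintenance (4 KO and 6 WT), which was named after its values were seen. Among all 370 such genes these shares were 11.1% and 15.9%.

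By role, 8 of the 10 ubiquitin and E1 genes had sites in KO cells and 8 in WT cells, led by Uba1, the main ubiquitin E1 (10 KO and 12 WT), and Uba2, a subunit of the SUMO E1 (8 KO and 11 WT), with Sae1 (3 KO and 4 WT) and Uba6 (4 KO and 3 WT) tied behind. Of 31 E2 genes, 11 had KO and 15 WT sites. The E2 with the most was Birc6, a giant E2/E3 hybrid (5 KO and 7 WT). Behind it stood Cdc34, the E2 of SCF ligases (2 KO and 3 WT), and then Ube2g1, Ube2j2 and Ube2q1 (each 2 KO and 2 WT) with Ube2z (3 KO and 1 WT). Among 26 HECT ligases, 10 had KO and 8 WT sites, and without Nedd4 and Trip12 the list held 47 KO and 41 WT sites, of which Huwe1 had 23 KO and 20 WT. Of 41 USP deubiquitinases, 21 had KO and 16 WT sites. Without Usp9x they held 52 in each genotype, with Usp34 at 9 KO and 8 WT. Of 30 cullin and RING subunits, 21 had KO and 19 WT sites, led by the DDB1-CUL4 adaptor Ddb1 (21 KO and 22 WT) and followed, after Trim71, by the SCF adaptor Skp1 (6 KO and 6 WT). Of 31 proteasome genes, 26 had KO and 25 WT sites, the highest share of the 6 lists, and their median of 4 sites over both lists was also the highest of these lists, with Psmd1 at 8 KO and 8 WT, and Psmb4 and Psmd2 each at 6 KO and 5 WT.

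Site lists give no RNA level, so Mettl3 loss was not checked here and binding and abundance of an mRNA cannot be told apart. Of 12 pluripotency markers, 10 had a KO and 11 a WT site, among them Pou5f1 (7 KO and 6 WT), Tdgf1 (7 KO and 7 WT) and Esrrb (9 KO and 4 WT). The pluripotency factor Sox2 had no site counted in either list, where sites over several genes were not counted. None of 14 markers of differentiated cells, such as Col1a1, Alb and Pax6, had a site in either list.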

How the data were processed

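Sites of anti-Lin28A irCLIP were read from 1 deposited list per genotype. In these lists the authors gave each site a position, strand, score and p-value; the submitters' processing notes name Bowtie2, UMI-tools and the build mm10 (hg38 for human), while the sources used here name no caller, control or threshold for the sites. The deposited score is the authors' own and was used within a list, except where both values of a window are set side by side; the deposited p-value was used to describe the lists. Gene bounds came from RefSeq (GRCm38.p6), without exons. Members were counted on the gene's strand, and other genes from sites over exactly 1 gene on either strand. The strand of Usp9x, missing from the promoter table, was taken as plus, which is the strand of every site in its bounds. Sites overlapping by 1 nt or more were shared. Intervals are Clopper-Pearson (SciPy 1.17.1, pandas 2.3.3, Python 3.11.15), and counting was tested on simulated data. Named genes were the members, the 3 genes with most sites in each ubiquitin list (ties included) and the 3 nearest genes of each member. Members and lists were chosen with earlier results of these data known. RNA structure files were not used, as their transcripts are not paired with genes here.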

Additional observations from a re-analysis of the deposited data

How the results depend on the processing

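Of 106 values recomputed under other settings, 89 stayed within a set limit and 17 did not. The 89 include values that could not change. Counting either strand, leaving out sites over other genes and merging touching sites gave 12 of these each. The limit was the binomial interval for shares and 1.5 times for site numbers. For median scores it was a standard deviation of the gene's site scores, a wide limit that all 6 medians met. With both lists cut to sites scoring at least their median, Nedd4 had 13 KO and 21 WT sites. Usp9x had 17 KO and 14 WT sites and Trip12 8 KO and 8 WT sites, and 47.6% of Nedd4 WT sites were shared. Fewer sites enter by construction, and a site that overlaps only a weaker site of the other list becomes unshared. With a gap of up to 100 nt counted as shared, 90.9% of Trip12 WT sites were shared. At least 20 sites per gene left 2.44% of genes with 1.5-fold more and 8.94% with 1.5-fold fewer KO sites, and a 2-fold limit left 3.51% and 5.14%. Alternatives chosen after seeing the data were 3: a score of at least 13 in both lists (100% of Usp9x KO sites shared), counting 50-nt windows (Nedd4 49 in KO and 56 in WT, 69.2% of Usp9x KO windows shared) and joining sites within 500 nt (Nedd4 16 in KO and 18 in WT). For Nedd4 the median-score, window and joined counts put WT above KO, and a score of at least 13 gave 30 KO and 30 WT sites, where all sites put KO above WT (32 KO and 30 WT). The order of sharing between Nedd4 and Trip12 WT sites turned round under the 100-nt gap and under the median-score setting. In the latter, weaker KO sites could not count as a match. By 50-nt windows it also turned, narrowly (67.9% in Nedd4 and 68.0% in Trip12). For KO sites, Nedd4 stood above Usp9x under the median-score setting (76.9% and 76.5%) and by 50-nt windows (77.6% and 69.2%). It also did so with sites joined within 500 nt (93.8% and 90.5%). The same held where at least 0.5 of a site had to be covered (87.5% and 84.6%). Merging touching sites changed nothing, since sites of a list were never closer than 50 nt. The strand and other-gene settings changed nothing either. All sites within the bounds of each gene were on 1 strand, and none lay over another gene. No paired analysis was possible because each genotype had 1 sample, and for the same reason no replicate could be left out. The sources used here give no read depth or control for the sites, so which unshared sites fell just under a threshold was not tested.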

Other observations

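Outside their bounds, the distance to the nearest site on the same strand varied among the 3 genes. It was not measured for other genes, so the values have no background here. The nearest site before the 5′ end of Nedd4 was 47.1 kb away in the KO list and 1336.6 kb in the WT list, and after the 3′ end of Usp9x 110.9 kb away in the KO list and 107.8 kb in the WT list. Around Trip12 no site of either list lay within 1 Mb before the 5′ end, the nearest being 1014.5 kb away in the KO list and 1499.3 kb in the WT list.

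Among 50-nt sites each score had a single p-value within a list, but the p-value of a score differed between lists. A score of 15 had 7.90e-07 in the KO list and 2.10e-06 in the WT list. The highest p-value was 1.06e-05 in the KO list, at a score of 12, and 1.01e-05 in the WT list, at a score of 13, and 10.9% of KO sites scored below 13.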
